A study of Mus musculus with 4 samples.

Results

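Chloride and fluid transport in the colon was followed through 10 genes on 4 Affymetrix arrays of mouse colon adenoma organoids. The genes were Guca2a, Guca2b, Gucy2c, Prkg2, Cftr, Slc26a3, Slc12a2, Slc12a8, Kcnq1 and Slc9a3, taken by gene symbol. The platform annotation gives them 17 probe sets, and they are 10 of the 17097 genes that a probe set of 1 gene represents. They were chosen by the differences between the genotypes on these same arrays. Those differences are therefore a description. Their limma calls are counted beside the share of all genes and repeated under alternative settings at the end, and nothing is read from them.

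All organoids were on a C57BL/6 background with floxed Apc (Apc fl/fl), the Wnt pathway suppressor, and a tamoxifen-inducible Cre under the Villin promoter, which is active in intestinal epithelium. The group labelled Apc null (2 arrays) was Gata6+/+, and the group labelled Gata6 null/Apc null (2 arrays) also carried floxed Gata6 (Gata6 fl/fl), the gene of a zinc finger transcription factor. They are called Apc-labelled and compound-labelled arrays here. No group had intact Apc, so these arrays hold no normal colon. Batches A and B each held 1 array of either group. Every culture had 7 days of growth with EGF (50 ng/ml), and Rock inhibitor was added at passaging. The design text speaks of biological replicates without naming mice or cultures, so the p-values here measure the spread between these arrays alone. Source animal or culture and genotype cannot be told apart.

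Fluid secretion in the colon is driven by chloride leaving the epithelial cell at its apical face. Guanylin and uroguanylin, small peptides released by the epithelium, bind guanylate cyclase C, which makes cyclic GMP. This second messenger activates a membrane-bound kinase, cGMP-dependent protein kinase II, which phosphorylates and opens the chloride channel CFTR and inhibits the sodium/hydrogen exchanger NHE3. Chloride enters from the blood side through the cotransporter NKCC1, and potassium channels such as KCNQ1 let potassium out again and keep the driving force. Loss of guanylin expression is well known in colorectal tumours.

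The start regions of the leading genes are shown because the groups differ in the labelled state of a GATA factor and because these genes lay at different levels in the groups. Each sequence is the 250 bases before the start of the gene in RefSeq (GRCm38.p6), read 5′ to 3′ on the strand of the gene. Capitals mark matches to the usual GATA factor motif on either strand, which is GATA with A or T before it and A or G after it. The windows are chr4:119637482-119637731 (plus strand) for Guca2a, chr4:119658946-119659195 (minus strand) for Guca2b, chr6:18170437-18170686 (plus strand) for Cftr and chr16:33517078-33517327 (plus strand) for the first of 3 starts of Slc12a8.
Guca2a: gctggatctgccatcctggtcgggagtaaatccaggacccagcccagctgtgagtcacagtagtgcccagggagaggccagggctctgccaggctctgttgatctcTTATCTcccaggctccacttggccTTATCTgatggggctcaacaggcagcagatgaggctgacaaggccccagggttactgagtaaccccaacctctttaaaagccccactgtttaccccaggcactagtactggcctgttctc
Guca2b: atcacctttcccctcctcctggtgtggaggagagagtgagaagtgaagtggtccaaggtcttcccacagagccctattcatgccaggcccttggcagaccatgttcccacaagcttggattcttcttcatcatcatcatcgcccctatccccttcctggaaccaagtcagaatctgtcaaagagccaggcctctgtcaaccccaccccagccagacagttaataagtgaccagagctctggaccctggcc
Cftr: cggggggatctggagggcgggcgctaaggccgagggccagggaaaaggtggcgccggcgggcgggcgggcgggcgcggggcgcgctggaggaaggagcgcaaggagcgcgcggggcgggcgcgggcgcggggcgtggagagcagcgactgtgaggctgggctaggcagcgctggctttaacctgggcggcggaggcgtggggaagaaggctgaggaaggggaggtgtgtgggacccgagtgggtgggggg
Slc12a8: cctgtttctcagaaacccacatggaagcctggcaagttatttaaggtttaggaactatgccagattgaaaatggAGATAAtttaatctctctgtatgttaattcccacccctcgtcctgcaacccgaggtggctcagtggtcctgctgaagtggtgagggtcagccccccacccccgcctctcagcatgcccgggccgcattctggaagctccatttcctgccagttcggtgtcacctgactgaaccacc

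The guanylin gene Guca2a had 2 matches, at positions -144 and -120 counted from its start. The Guca2b and Cftr windows had none. The first Slc12a8 start had 1 match, the second none and the third 3 matches. Of 32851 such windows in the RefSeq table, 26.5% held at least 1 match. The Cftr window is rich in G and C, at 76.4% against 57.2% for Guca2a, 54.4% for Guca2b and a median of 52.4% over all windows. Guca2a and Guca2b are neighbouring genes that face each other on opposite strands. Start sequences of only 6 of the 10 genes were searched, and the windows of Slc26a3 and Slc9a3 held no match. A match is a description of letters and says nothing about binding.

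Expression is given as log2 units of the authors' RMA values, in which 1 unit is a 2-fold step, and the level of 1 probe set is not compared with that of another. A gene is represented by its brightest probe set, and the filter level of 4.45 log2 units, the 40th percentile of probe set means, marks dim signal. Array medians lay between 4.91 and 5.04 with correlations between arrays of 0.963 to 0.979. Epithelial markers (Epcam, Cdh1, keratins and others) averaged 10.28 and 10.36 in the compound-labelled arrays, against 10.64 and 10.67 in the Apc-labelled ones. Of these 8 markers, 6 were lower without overlap in the compound-labelled arrays (75%, against 17.3% of all genes tested). Cdx2 had the largest difference, at -1.57. Fibroblast, immune and endothelial marker lists averaged 4.06 to 4.56, around the filter level, but not every gene in them was dim. The immune marker Cd68 read 4.94 and 7.23 in the compound-labelled arrays, against 5.92 and 7.565. It was higher in batch B by 1.97 (limma batch fit, adjusted p = 0.0115). The endothelial marker Vwf read 5.08 and 6.04 against 5.14 and 5.49. Gata6 itself read 9.37 and 9.40 at its brighter probe set in the compound-labelled arrays, against 8.89 and 8.61 in the Apc-labelled ones. The position of that probe set relative to the deleted part is not known here, so it does not check the labels. The brightest Apc probe set read 8.34 and 8.14 against 8.35 and 8.34, and floxed Apc was common to both groups. Every direction given here rests on the labels. All differences are compound-labelled minus Apc-labelled arrays.

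The hormone genes, the chloride channel gene and Slc12a8 were the members with the largest differences, all lower in the compound-labelled arrays. Cftr was 11.6-fold lower, Guca2a 7.73-fold, Slc12a8 5.45-fold and Guca2b 3.96-fold. Gucy2c, Slc12a2 and Kcnq1 were 1.39-fold to 1.72-fold lower, Prkg2 and Slc9a3 were higher, and Slc26a3 stayed dim. Of the 9 members above the filter, the group values did not overlap for 7 on the lower side and 2 on the higher side. Over all 11874 genes tested, 17.3% were lower and 14.7% higher without overlap. Past an adjusted p of 0.05 in the limma fit were Cftr and Slc12a8, 2 of 9 members, where 0.648% of all genes were called (0.126% called lower). With the batch as a block 7 of 9 members were called, 6 lower (Guca2a, Guca2b, Cftr, Slc12a2, Slc12a8 and Kcnq1) and 1 higher (Slc9a3), where 6.88% of all genes were (2.97% lower, 3.91% higher). In a limma fit over single probe sets 0.2% of 27022 were called, and 4.43% with the block. There Cftr was called at probe set 1427767 (adjusted p = 0.0350), and Slc12a8 was not (adjusted p = 0.0753). With the block Slc9a3 was not called in that fit (adjusted p = 0.0551), and Prkg2 was called higher at probe set 1421354 (adjusted p = 0.0417). The genotype difference chose the members, so nothing is read from these counts.

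**Figure D1:**
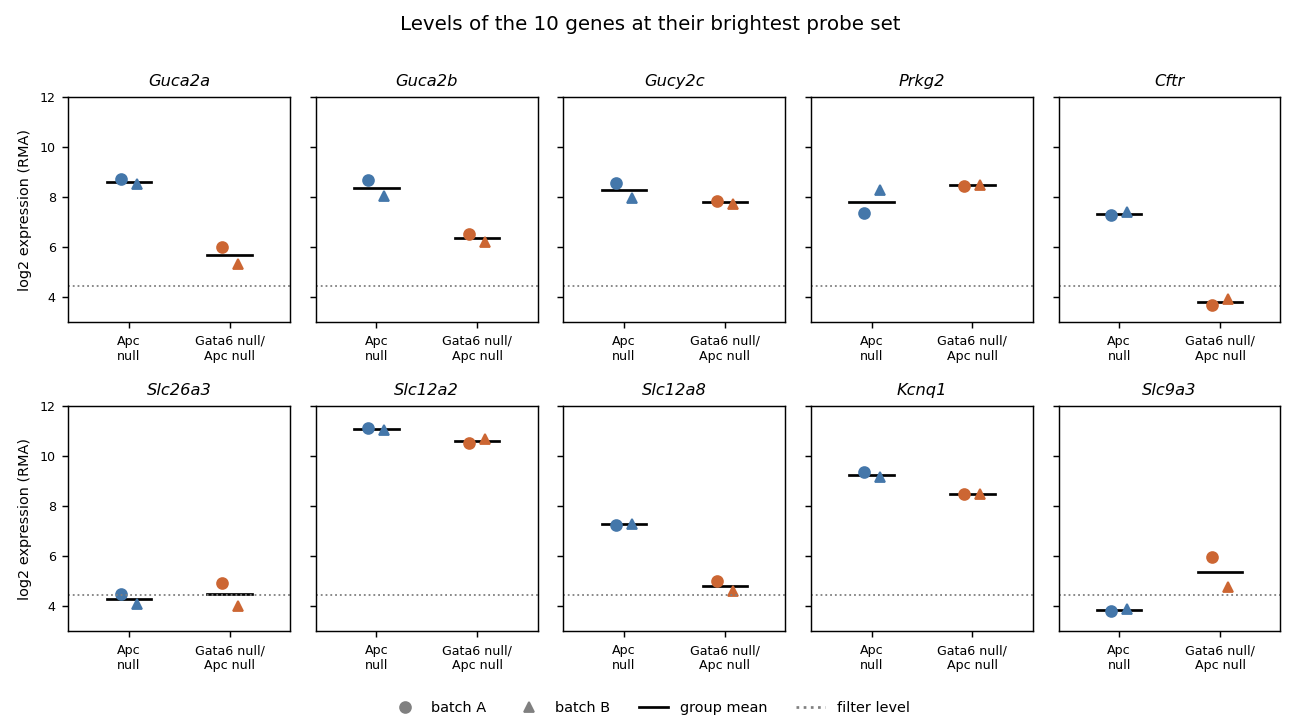
Log2 expression (RMA) of the 10 genes at their brightest probe set, with 2 arrays per group as points (circle for batch A, triangle for batch B), the group mean as a line and the filter level of 4.45 dotted. Cftr lies below the dotted line in both compound-labelled arrays, at 3.68 and 3.92, and Slc26a3 lies near it on all 4 arrays.

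Guca2a encodes guanylin, the main activator of guanylate cyclase C in the colon. It read 6.02 in batch A versus 5.31 in batch B in the compound-labelled arrays, and 8.72 and 8.51 in the Apc-labelled ones. Both arrays of the first group lay more than 2 units below both of the second. The group means were 5.66 ± 0.50 and 8.61 ± 0.14 (SD, n = 2 each), a log2 difference of -2.95 (SE 0.33). Batch A gave -2.70, batch B -3.20, and 8 of the 11874 genes tested had a larger decrease.

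Guca2b encodes uroguanylin, the second ligand of the same receptor. Its values were 6.50 and 6.22 in the compound-labelled arrays against 8.66 and 8.03 in the others. The groups did not overlap, and the batch B Apc-labelled array was the nearer to the other group. The log2 difference was -1.98 (SE 0.32), from -2.16 in batch A to -1.81 in batch B. Both ligand genes rest on 1 probe set each.

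Gucy2c encodes their receptor, guanylate cyclase C, and its levels lay much closer together than those of its ligands. It read 7.85 and 7.71 in the compound-labelled arrays, and 8.56 and 7.96 in the Apc-labelled ones. The groups did not overlap, but the batch B Apc-labelled array lay close to the compound-labelled ones. The mean difference of -0.48 (SE 0.29) was of the order of the 0.43 SD within the Apc-labelled group. Leaving out the Apc-labelled batch A array gave -0.17, and leaving out that of batch B -0.78.

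Prkg2 encodes cGMP-dependent protein kinase II, the step between cyclic GMP and CFTR, and was on the higher side at each of its 3 probe sets. At the brightest, the values were 8.44 and 8.48 in the compound-labelled arrays, and 7.35 and 8.27 in the others. The batch B Apc-labelled array therefore lay near the first group, and the difference of 0.65 (SE 0.36) was 1.09 in batch A versus 0.21 in batch B. Without the Apc-labelled batch A array it was 0.19, and without that of batch B 1.11. The other probe sets, 1421354 and 1435162, differed by 1.24 and 0.91, with 1.69 and 1.29 in batch A and 0.79 and 0.54 in batch B. The size of the Prkg2 difference thus depended on the probe set, while its sign did not.

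Cftr encodes the cAMP- and cGMP-regulated chloride channel of the apical membrane, the gene mutated in cystic fibrosis. It read 3.68 and 3.92 in the compound-labelled arrays, against 7.29 and 7.39 in the Apc-labelled arrays. The groups stood far apart, and the spread within each was 0.17 and 0.07 (SD, n = 2 each). Its log2 difference of -3.54 (SE 0.20) was the seventh largest decrease of all genes tested, at -3.60 in batch A versus -3.47 in batch B. A second probe set, 1420579, which can match shared sequence, read 3.77 and 3.34 against 6.81 and 6.28 and differed by -2.99. Both probe sets were under the filter level in the compound-labelled arrays, so Cftr passed the filter through the Apc-labelled group and the size of its fold depends on the array floor. Bulk RNA does not tell fewer Cftr-expressing cells from less Cftr RNA per cell, and the same holds for every gene here.

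Slc26a3 and Slc9a3 encode apical exchangers of absorption. Slc26a3, the chloride/bicarbonate exchanger of mature colonocytes, is the member that did not pass the filter, with a mean just under it at its brighter probe set. It read 4.95 and 4.03 in the compound-labelled arrays and 4.50 and 4.10 in the others, so the groups overlapped. A second probe set read 3.19 to 3.23 on all 4 arrays. Slc9a3, the sodium/hydrogen exchanger NHE3, read 5.99 and 4.77 against 3.80 and 3.88. Its difference of 1.53 (SE 0.41) was 2.18 in batch A versus 0.88 in batch B, and it was 0.92 without the compound-labelled batch A array and 2.14 without that of batch B. Slc9a3 was below the filter level in both Apc-labelled arrays and passed the filter through the other group, so it had to differ.

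The basolateral genes lay well above the filter level on all arrays and were lower in the compound-labelled array of each batch. Slc12a2, which encodes NKCC1, the sodium, potassium and chloride cotransporter that loads the cell with chloride, read 10.51 and 10.70 against 11.14 and 11.03. The compound-labelled arrays were lower in both batches, by 0.63 and 0.34, for a mean difference of -0.48 (SE 0.12). Its other 2 probe sets differed by -0.41 and -0.64. Kcnq1, the potassium channel that sustains chloride exit, read 8.48 and 8.49 against 9.36 and 9.18, with a difference of -0.78 (SE 0.18). Its 2 values in the compound-labelled arrays were within 0.01 of each other, and the difference was -0.88 in batch A versus -0.69 in batch B.

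Slc12a8 belongs to the cation chloride cotransporter family by sequence. It read 5.02 and 4.63 in the compound-labelled arrays and 7.27 on both others. The difference was -2.45 (SE 0.24), with -2.25 in batch A versus -2.64 in batch B. A second probe set read 3.21 to 3.30 everywhere and differed by -0.02, so it was too dim to bear on the gene. As the mean of both probe sets the difference was -1.23. At the brighter probe set, leaving out each array in turn gave differences of -2.26 to -2.64.

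**Figure D2:**
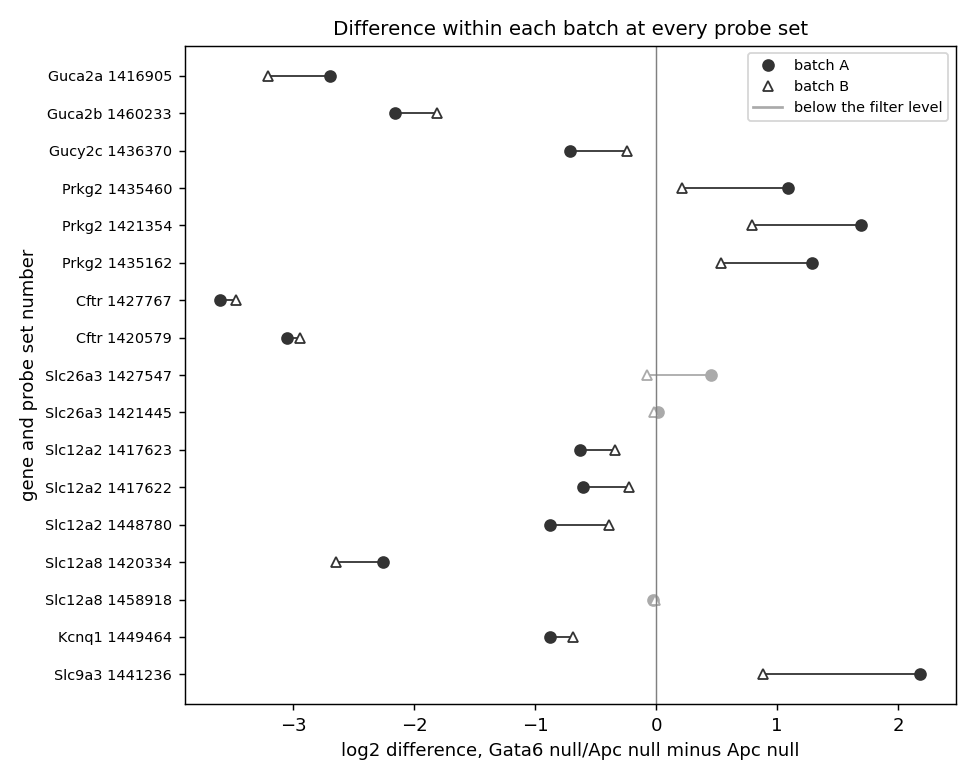
Log2 difference (Gata6 null/Apc null minus Apc null) within batch A (circles) and batch B (open triangles) for each of the 17 probe sets of the 10 genes. Grey marks probe sets below the filter level. At the 14 probe sets above it, both batches fall on the same side of 0.

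The difference between the batches was not used to choose the members and could be tested. In a limma fit with genotype as a second term, 0 of 9 members passed an adjusted p of 0.05, where 16.6% of all genes did. At an unadjusted p under 0.05 the fit had 1 of 9 members, Guca2b, and 3986 of all 11874 genes. Batch B was lower than batch A by 0.46 for Guca2b (SE 0.18, limma adjusted p = 0.132), by 0.46 for Guca2a (SE 0.20, adjusted p = 0.169) and by 0.37 for Gucy2c (SE 0.17, adjusted p = 0.188). Each of these 3 genes of the guanylin system was lower in batch B in both genotypes, as a description of 2 pairs of arrays. Prkg2 was 0.47 higher in batch B (SE 0.23, adjusted p = 0.203), with 0.91 among the Apc-labelled arrays and 0.03 among the others. Slc9a3 differed by -0.57 (SE 0.30, adjusted p = 0.244), with -1.22 in the compound-labelled arrays and 0.08 in the Apc-labelled ones. Cftr, Slc12a2, Slc12a8 and Kcnq1 differed between batches by -0.19 to 0.17, with adjusted p from 0.550 to 0.820. With dim genes kept in, 1 of 10 members was called in the limma batch fit, and 2254 of all 17097 genes. That member was Slc26a3 (-0.66, SE 0.17, adjusted p = 0.0393), which lay near the filter level.

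Other genes of ion and water transport were taken from 7 lists written with earlier results of these arrays known. Of 128 genes listed, 117 were on the array under 1 gene name and 84 passed the filter. None passed an adjusted p of 0.05 in the limma genotype fit, and 10 of the 84 had an unadjusted p under 0.05, as did 946 of all 11874 genes. With the batch as a block, 12 of 84 passed, 1 higher and 11 lower, which is 14.3% against 6.88% of all genes. Their groups did not overlap for 32 on the lower side (38.1%, against 17.3% of all genes) and 7 on the higher side (8.33%, against 14.7%). The median difference over the 84 genes was -0.10, and over all genes tested it was -0.03.

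Aquaporins, the water channels, and carbonic anhydrases, which supply bicarbonate and protons, held 6 of these 12 calls. Of 9 tested, 6 were lower with the batch as a block and none was called without it, and the list median was -1.16. Car13 read 7.64 and 7.76 in the compound-labelled arrays against 9.32 and 9.14, a difference of -1.53 (SE 0.20, limma adjusted p = 0.0784, and 0.00325 with the block). Car1, the abundant carbonic anhydrase of colonocytes, read 8.67 and 9.75 against 10.37 and 11.50. The difference was nearly equal in both batches, at -1.70 and -1.75 (SE 0.52, limma adjusted p = 0.421, and 3.81e-04 with the block). Car2 differed by -0.42 (limma adjusted p = 0.422, and 0.0232 with the block).

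Aqp4, a water channel of the basolateral membrane, had the largest difference of the list, and it was uneven between batches. It read 5.77 in batch A versus 7.81 in batch B in the compound-labelled arrays, against 10.48 and 9.56. The groups did not overlap, and the difference of -3.24 (SE 0.75) was -4.72 in batch A versus -1.76 in batch B (limma adjusted p = 0.265, and 0.0350 with the block). Without the compound-labelled batch B array it was -4.26 (limma adjusted p = 0.0453), and without that of batch A -2.22 (limma adjusted p = 0.168). In each case 1 array is left in that group, which is assumed to vary like the Apc-labelled group. Aqp1 (-1.16) and Car12 (-1.04) completed the 6, and were chosen for naming after their values were seen. Car9, a hypoxia-induced carbonic anhydrase also named afterwards, read 5.86 and 10.25 against 9.33 and 10.28, so it was low on 1 array alone.

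**Figure D3:**
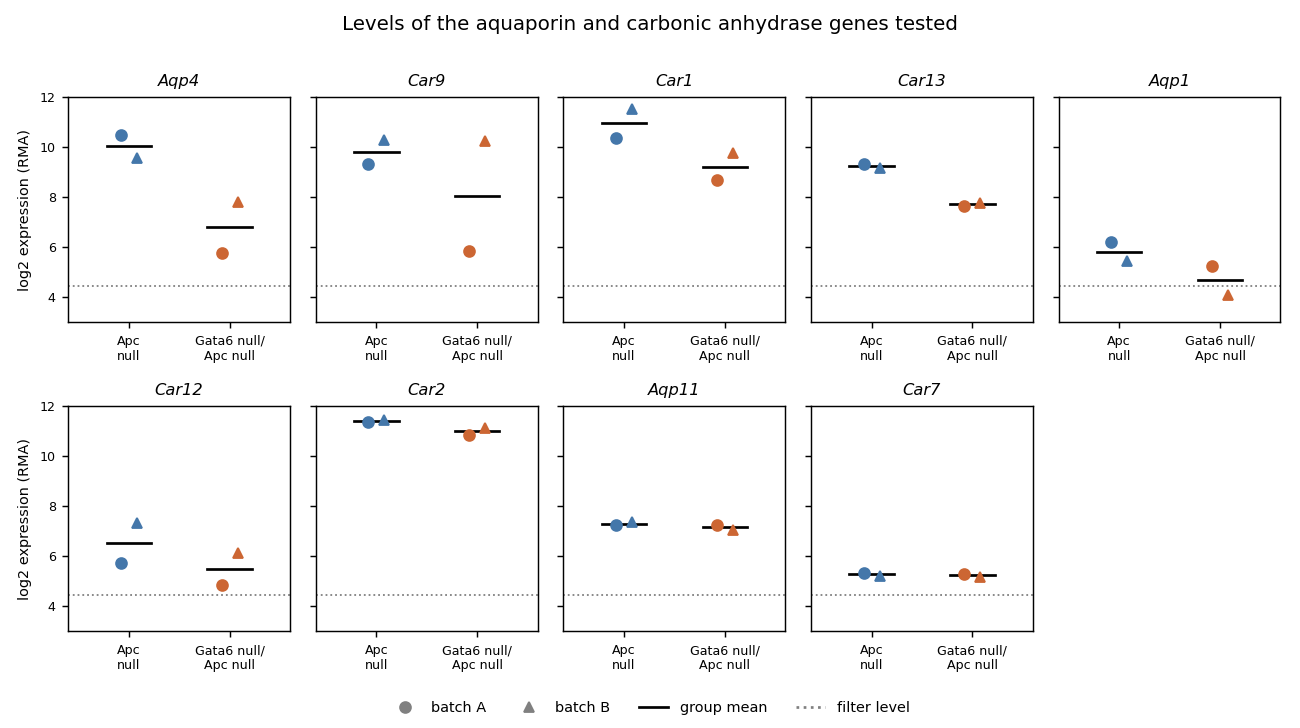
Log2 expression (RMA) of the 9 aquaporin and carbonic anhydrase genes tested, with 2 arrays per group as points (circle for batch A, triangle for batch B), the group mean as a line and the filter level of 4.45 dotted. Both compound-labelled arrays lie below both others for Aqp4, Car1, Car13, Aqp1, Car2 and Aqp11, the last by a small gap (7.241 against 7.242 in batch A). The groups overlap for Car9, Car12 and Car7.

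The list of CFTR activation and scaffold genes also holds genes that restrain or only bind CFTR, and its genes moved in both directions. Of 21 tested, 1 was higher and 2 lower with the batch as a block, none without it, and the list median was -0.05. Vipr1, the receptor for the secretory peptide VIP, read 7.13 and 6.86 against 8.24 and 7.80, a difference of -1.03 (SE 0.28, limma adjusted p = 0.348, and 0.0194 with the block). Slc9a3r1, which encodes the scaffold NHERF1 that binds both CFTR and NHE3, differed by -0.56 (SE 0.23, limma adjusted p = 0.700, and 0.0418 with the block), and by -0.36 without the Apc-labelled batch A array. Its probe set can match shared sequence, and without such probe sets Slc9a3r1 differed by -0.48. Stx1a, a syntaxin that binds CFTR, was the higher one, at 7.49 and 8.59 against 5.91 and 6.80, a difference of 1.69 (SE 0.51, limma adjusted p = 0.423, and 0.00495 with the block).

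Of 16 anion channel and exchanger genes tested, 2 were lower with the block, none higher and none called without it, with a list median of -0.01. Ano1, the calcium-activated chloride channel TMEM16A, read 7.52 and 8.27 against 8.76 and 8.90 (difference -0.93, SE 0.31, limma adjusted p = 0.516, and 0.0361 with the block), and its difference was -0.56 without the compound-labelled batch A array. Its probe set can also match shared sequence, and without such probe sets Ano1 differed by -1.17. Clcn5, an endosomal chloride/proton exchanger, differed by -0.89 (SE 0.42, limma adjusted p = 0.799, and 0.0488 with the block). That difference was -1.41 without the compound-labelled batch A array and -0.37 without that of batch B. Among 8 potassium channel and pump genes the list median was -0.67 and 1 was called with the block. That gene was Kcnn4, the calcium-activated channel that also sustains secretion, at 9.71 and 9.85 against 10.27 and 10.53 (difference -0.62, SE 0.16, limma adjusted p = 0.313, and 0.0129 with the block).

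The remaining lists had no call with or without the block. The 10 cyclic GMP genes had a median of -0.03, and the genes with the smallest p were Mrvi1 (-0.19), a substrate of cGMP-dependent kinase, and the phosphodiesterase gene Pde3b (-0.32), both at a limma adjusted p of 1.00. The 13 sodium transport genes had a median of -0.17. Nedd4l, a ubiquitin ligase that removes the sodium channel ENaC, differed by -0.42 (limma adjusted p = 0.777), and the kinase gene Sgk1 read 5.84 and 8.79 against 5.73 and 5.96, high on 1 array. The 7 cotransporter and kinase genes, which exclude Slc12a2 and Slc12a8, had a median of -0.09. Oxsr1 and Stk39, kinases that activate NKCC1, differed by -0.53 and -0.41 (limma adjusted p = 0.755 and 0.992).

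**Figure D4:**
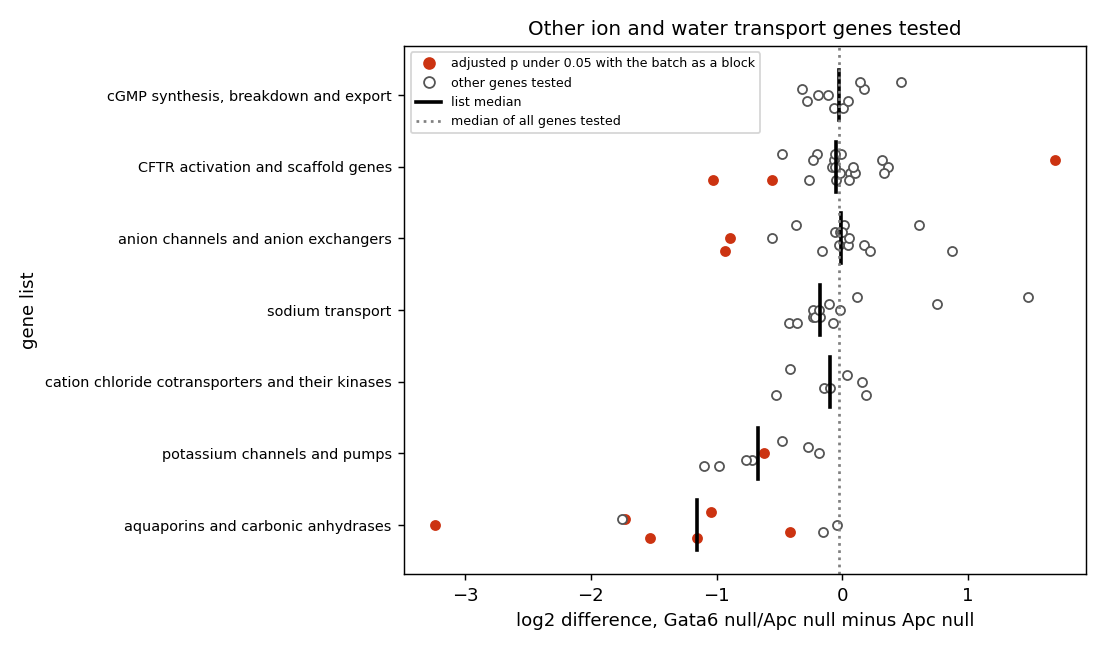
Log2 difference (Gata6 null/Apc null minus Apc null) of the 84 other transport genes tested, by list, each point a gene. Filled points passed the threshold in the blocked fit, black bars are list medians, and the dotted line is the median of all genes tested. The aquaporin and carbonic anhydrase list holds 6 of the 12 filled points.

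Markers of epithelial cell types were also read, and they did not all move the same way. The differentiated colonocyte list without Guca2a averaged 5.83 and 5.92 in the compound-labelled arrays, against 6.19 and 6.33. Its genes Alpi, Aqp8 and Car4 had group means under the filter level in both groups. Of the 6 other colonocyte markers tested, 2 (Car1 and Fabp2) were lower with the block, where 2.97% of all genes were. None was called without it. Fabp2 read 4.27 and 3.96 in the compound-labelled arrays, under the filter level, against 5.07 and 4.71. It passed the filter through the Apc-labelled group, so nothing is read from its call. Lypd8 (-0.76) was lower without overlap, while the groups overlapped for Krt20 (-0.53), Slc26a2 (-0.02) and Ceacam20 (0.38). Car1 is also among the carbonic anhydrases described here. Goblet cell markers averaged 6.33 and 6.61 against 7.76 and 7.58, with 1 of 5 tested lower without the block and 2 of 5 with it. Spink4 (-4.30) was called in both fits and Agr2 (-1.81) with the block. Tff3 (-0.72) and Spdef (-0.49) were lower without overlap, and the groups overlapped for Fcgbp (-0.54). Zg16 (0.38) and Clca1 (-0.94) had means under the filter level, and neither had overlapping groups. Muc2 was not on the array under 1 gene name. Deep crypt secretory and Paneth markers averaged 6.60 and 6.74 against 7.27 and 7.68, with 2 of 4 tested lower with the block. Stem cell markers averaged 7.97 and 8.08 against 8.11 and 8.33, with 1 of 6, Lgr5 (-2.47), lower with the block. The median difference of the 6 was 0.20, and Axin2 (0.46) and Smoc2 (0.53) had higher values without overlap. Enteroendocrine markers averaged 4.65 and 4.62 against 4.88 and 5.001, and tuft cell markers 5.18 and 5.09 against 4.58 and 4.82, with 1 of 2 tested, Avil (2.67), higher with the block. The other, Sh2d6, differed by -0.01. Dclk1, Gfi1b, Pou2f3 and Trpm5 had means under the filter level, with differences of -0.16 to 0.10. These marker genes were chosen for naming after their values were seen. The part of these cell types in the differences of Guca2a, Guca2b and Cftr was not tested.

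The genes with the most similar pattern were sought for each member that spanned at least 1 log2 unit over the 4 arrays, by the distance between values centred on each gene's mean. This likeness over 4 arrays follows the same genotype difference and is a description. Guca2a was nearest to Aldh1a1, a retinal dehydrogenase, at a distance of 0.28, then to Mep1b (0.41), a brush border protease, and Gsta2 (0.47), a glutathione transferase. The nearest to Guca2b were Sftpd (0.25), Lgals2 (0.34) and Lcp1 (0.36). Cftr lay farther from its nearest genes, Gcnt3 (0.69), Mep1b (0.73) and Gsta2 (0.74), than any other of these members did. Slc12a8 was closest to Glipr1 (0.13), then Aldh1a1 (0.37) and Nrp1 (0.41). On the higher side, Prkg2 was nearest to Rell1 (0.15), Tnik (0.16) and Pdcd4 (0.20), and Slc9a3 to B4galt5 (0.29), Cxcl15 (0.32) and Arhgap23 (0.42).

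**Figure D5:**
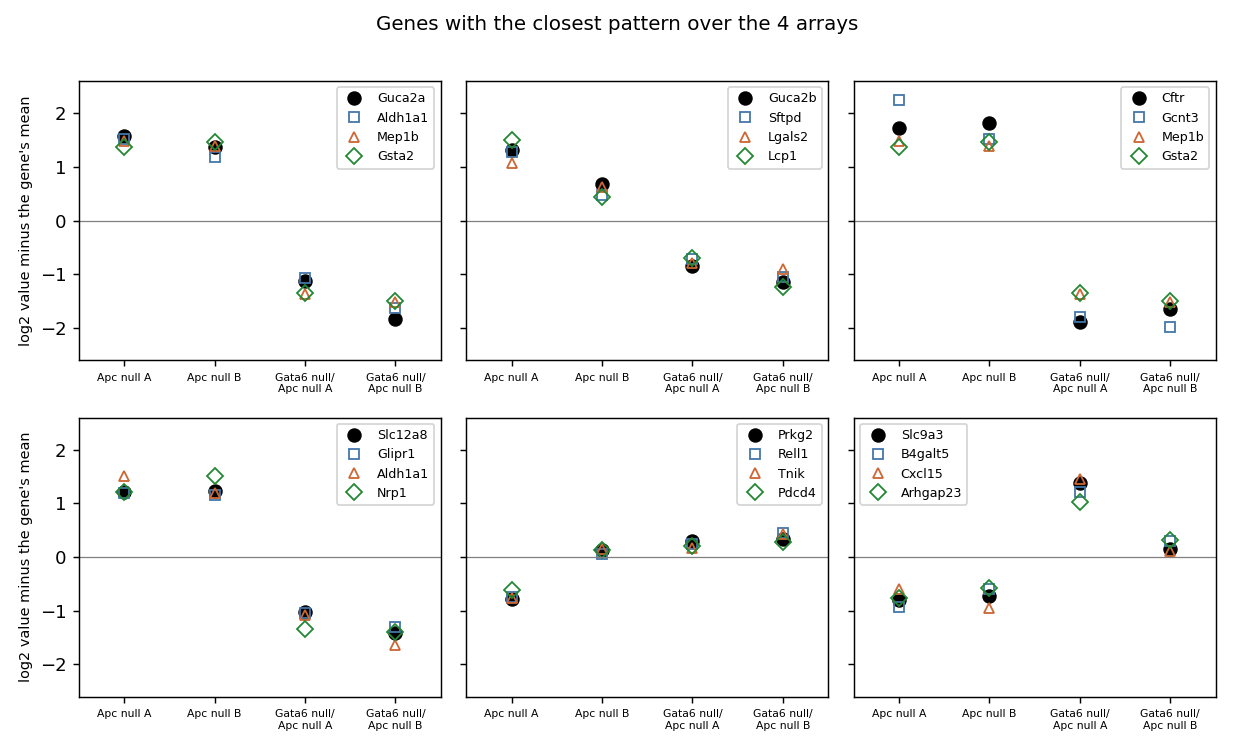
Log2 values minus each gene's mean over the 4 arrays, for 6 members (filled) and the 3 genes nearest to each (open symbols). The Apc-labelled batch A array stands apart from the other 3 arrays for Prkg2 and its nearest genes, while Guca2a, Cftr and Slc12a8 split by genotype.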

How the data were processed

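The authors deposited 1 log2 value for each probe set and array. The submitters' processing notes name RMA and affy, with no version. RMA subtracts background, equalises the distribution of values between arrays and combines the probes of a set, which removes overall shifts and compresses dim signal. Per the labels' protocols, 25 ng of total RNA was amplified before labelling. The genome build is not given in the sources used here. The number of arrays limits the precision.

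Of 45141 probe sets, 104 controls were left out, 28898 had 1 gene in the platform annotation, 551 several and 15588 none. Entrez identifiers matched 28689 of them to RefSeq (GRCm38.p6), and 0 symbols changed. Genes under the 40th percentile were not tested.

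Tests used limma 3.58.1 under R 4.3.3 (trended eBayes, Benjamini-Hochberg over 11874 genes, threshold 0.05, two-sided), with 2 residual degrees of freedom. A shared batch letter in the labels pairs 1 array of each genotype. The batch differences of both genotypes correlated at 0.675 over genes. The fit with this replicate block has 1 residual degree of freedom and is given where it changes a call. It called 7 members, against 2 without it. The scripts were tested on simulated data. There the genotype fit called 1.52% of the differences of 1 unit, 86.6% of those of 2 units and 92.5% of those of 3. A gene not called can therefore still differ. Of the calls 6.92% were false, and 9.68% with the block. The simulation for the fit without the block held no batch effect.

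The members and lists were chosen with earlier results of these data known. Named are Gata6, Apc, the members, up to 4 called genes of each list (without the block first, then with it) or else the 2 with the smallest p, and the 3 nearest genes of a member. Alternatives were the block, other filters, probe set rules, moderation and scalings, and leaving out each array.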

Additional observations from a re-analysis of the deposited data

Results flagged for a closer look

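The genotype difference of Slc26a3 was 0.45 in batch A, but -0.0763 for batch B, so its sign was opposite in the 2 batches. Whether the genotype difference itself differs between the batches was not tested, and all values lay near the filter level.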

How the results depend on the processing

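All 9 tested members kept the sign of their genotype difference under each alternative in which they were tested. Centring the arrays or cyclic loess moved no member by more than 0.033. Against 77 genes past the threshold, the replicate block called 817, and leaving out 1 array gave 33 (batch A, Apc-labelled, left out) to 130 (batch A, compound-labelled, left out). The members called rose from 2 to 7 with the block and were 1 with the mean of all probe sets, where Slc12a8 was lost. Leaving out 1 array gave 1 to 3 members. Slc12a8 was not called with any array left out. Slc9a3 was called with either compound-labelled array left out, where the remaining array is assumed to vary like the Apc-labelled group. Guca2a was called with no filter, with the 60th percentile filter, which leaves Cftr untested, with centring and without the compound-labelled batch A array. The members were chosen by this difference, so these calls rank no member above another. Of the pathway genes, 0 were called, 12 with the block and 0 to 1 without 1 array. Over 27022 probe sets, 54 passed, 1197 with the block and 0 to 9 without 1 array. The batch fit called 1977 genes, 873 with no trend and 0 without the genotype term. It called 0 members, and 1 with no filter on dim genes. The cause of these changes was not tested. Leaving out an array is not possible in the batch test, which then has no residual degrees of freedom. Values near the filter level limit the folds of Cftr, Slc12a8 and Slc9a3.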
